A study of Mus musculus with 4 samples.

Results

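Voltage-gated sodium channels and HCN pacemaker channels set how easily a neuron fires. Here 8 of their genes were examined for altered DNA methylation in the mouse somatosensory cortex: the sodium channel alpha genes Scn1a, Scn2a, Scn3a and Scn8a, the sodium channel beta gene Scn4b, and the HCN genes Hcn2, Hcn3 and Hcn4. A region was counted to a gene when it shared at least 1 bp with the RefSeq gene body widened by 5 kb on both sides, in any cytosine context. By this rule 17 of the 101350 differentially methylated regions in the authors' deposited table belonged to the 8 genes, 10 of them higher in the knockout and 7 lower.

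The study compared 2 whole-genome bisulfite libraries of a conditional knockout labelled Nsd1Nex-cKO (cKO) with 2 control libraries labelled Nsd1fl/+, all made from dissected somatosensory cortex at an age of 2.5 months. NSD1 methylates histone H3, and the Nex (Neurod6) driver is known to act in excitatory neurons of the cortex, so other cell types of the tissue would keep the gene. The labels do not say whether the control carried the driver, nor whether the numbered libraries came from separate animals. Bisulfite turns unmethylated cytosines into a base read as T, and the share of cytosines still read as C is taken as the methylation level. A cytosine that escaped conversion would also be read as C. The deposited regions carry no conversion rate, which matters most for the lowest levels.

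The table holds the authors' mean level of each group for each listed region, in the contexts CG, CHG and CHH, with H for any base but G. It holds neither values per library nor coverage, so no level below has an SD, no difference has a test, and the depth is unknown. It lists called regions only, and a gene without a region may differ by less than the authors' threshold or may not have been covered. In the widened gene of Nsd1 itself, 5 CHH regions had means of 4.77% to 7.90% in cKO and of 0.405% to 0.834% in control, and 2 CHG regions were also higher (9.43% to 10.7% in cKO, 0.380% to 0.475% in control). A CG region there went the other way, with 50.4% in control and 29.8% in cKO. These levels say nothing of how complete the deletion was. A shift in the mix of cell types and a shift in methylation within cells cannot be told apart in this tissue, and the table gives no marker of cell type against which the dissection could be checked.

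As background, the alpha subunits of sodium channels form the pore that carries the upstroke of the action potential, and the beta subunits are small partners that modify their gating and placement. HCN channels open when the membrane is hyperpolarised, are tuned by cyclic nucleotides and carry a depolarising current that shapes dendritic integration and rhythmic firing. In mature neurons, cytosines outside CG also carry methylation, at levels far below those in CG.

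No listed region was found at the starts that could be examined, as at most genes. RefSeq start windows of 300 bases (GRCm38.p6, the assembly of mm10) were at hand for 6 of the 8 genes, 8 windows in all, and 0 of them overlapped a region. Over all genes, 2.74% of 32851 such windows did. The 250 bases before the start are shown for 4 genes whose regions lie at different places relative to it, 5′ to 3′ on the gene's own strand, with each CG in capitals. Scn4b and Scn1a had a loss shortly after the start (2.34 kb and 3.81 kb), and Hcn2 and Scn8a had CG gains far down the gene.
Scn4b, chr9:45138374-45138623, plus strand: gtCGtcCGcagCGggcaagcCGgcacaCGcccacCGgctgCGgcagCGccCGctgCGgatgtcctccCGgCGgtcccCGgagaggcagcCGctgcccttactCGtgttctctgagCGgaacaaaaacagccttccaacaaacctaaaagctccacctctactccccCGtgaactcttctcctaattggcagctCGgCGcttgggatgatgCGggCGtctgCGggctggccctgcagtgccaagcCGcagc
Scn1a, chr2:66440838-66441087, minus strand: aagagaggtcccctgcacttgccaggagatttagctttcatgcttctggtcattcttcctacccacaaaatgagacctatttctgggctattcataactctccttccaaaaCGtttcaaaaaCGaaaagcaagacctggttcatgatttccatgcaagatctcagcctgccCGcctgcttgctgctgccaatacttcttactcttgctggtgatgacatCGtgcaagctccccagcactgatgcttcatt
Hcn2, chr10:79716384-79716633, plus strand: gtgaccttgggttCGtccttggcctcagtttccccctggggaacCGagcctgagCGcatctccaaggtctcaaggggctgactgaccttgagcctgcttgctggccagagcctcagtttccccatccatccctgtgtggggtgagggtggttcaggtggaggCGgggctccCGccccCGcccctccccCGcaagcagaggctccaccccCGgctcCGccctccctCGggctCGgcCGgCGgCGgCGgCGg
Scn8a, chr15:100870395-100870644, plus strand: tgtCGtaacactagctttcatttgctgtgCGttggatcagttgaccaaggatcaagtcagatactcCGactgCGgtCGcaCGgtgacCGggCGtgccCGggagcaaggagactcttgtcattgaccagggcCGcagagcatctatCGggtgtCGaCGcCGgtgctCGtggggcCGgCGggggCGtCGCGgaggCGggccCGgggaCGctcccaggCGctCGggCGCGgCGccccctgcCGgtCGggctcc
The first start of Scn8a held 30 CG, Scn4b 23 and Hcn2 16, whereas Scn1a held 4. As many CG or more were present before 5.94% of all starts for Scn8a and before 62.2% for Scn1a, so the 4 sequences span CG-rich and CG-poor starts. The sequence of the regions themselves is not shown, as no genome was used here.

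In the CG context, 6 of the 9 regions were higher in cKO and 3 were lower. That is 66.7% higher, where 12.8% of the 19337 CG regions at protein-coding genes widened in the same way were higher. The 8 genes were, however, chosen with earlier results of these data known. Further sodium channel genes, described below, held 0 CG regions higher in cKO, with 6 lower at 5 alpha genes and 1 lower at 2 beta genes. Counted by gene, 4 of the 8 (Scn3a, Scn8a, Hcn2 and Hcn3) had a CG region higher in cKO, against 8.21% of all 21779 protein-coding genes and 11.0% of the 11162 whose length lies within the range of the 8, from 13.5 to 176 kb. A CG region lower in cKO was present in 3 of the 8 (Scn8a, Scn4b and Hcn4). This share of 37.5% lay near the 26.5% of all protein-coding genes and the 31.8% of those in this range of length. The range is wide and does not match the 8 gene by gene. Of the genes in it, 40.8% had no region in any context, against 6.49% of the 1510 at least as long as Scn2a. With the flank widened to 20 kb, 7 of 20 CG regions were higher (9.93% at protein-coding genes). With differences of at least 30 points alone, 0 of 3 were (4.14% at protein-coding genes), since the largest gain was 28.6 points.

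Outside CG, the 8 genes held CHH regions of both directions in equal number, 4 higher and 4 lower. Of the 22394 CHH regions at protein-coding genes, 36.1% were higher. A CHH region higher in cKO was present at 4 of the 8 genes (Scn1a, Scn8a, Hcn3 and Hcn4). The share was 16.3% of all protein-coding genes and 22.8% of those in the same wide range of length. A lower one was present at 4 as well (Scn1a, Scn4b, Hcn3 and Hcn4), against 22.4% and 25.5%. Scn1a, Hcn3 and Hcn4 had both, which 3.53% of all protein-coding genes had. Only Scn8a had more CHH regions higher than lower, and 14.1% of protein-coding genes did. With a flank of 20 kb, 4 of 20 CHH regions were higher (28.6% at protein-coding genes), and with differences of at least 5 points alone 2 of 3 were (66.7%, against 46.7%). None of the 8 genes had a CHG region, a context listed at 0.51% of protein-coding genes with a gain and at 0.73% with a loss.

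**Figure D1:**
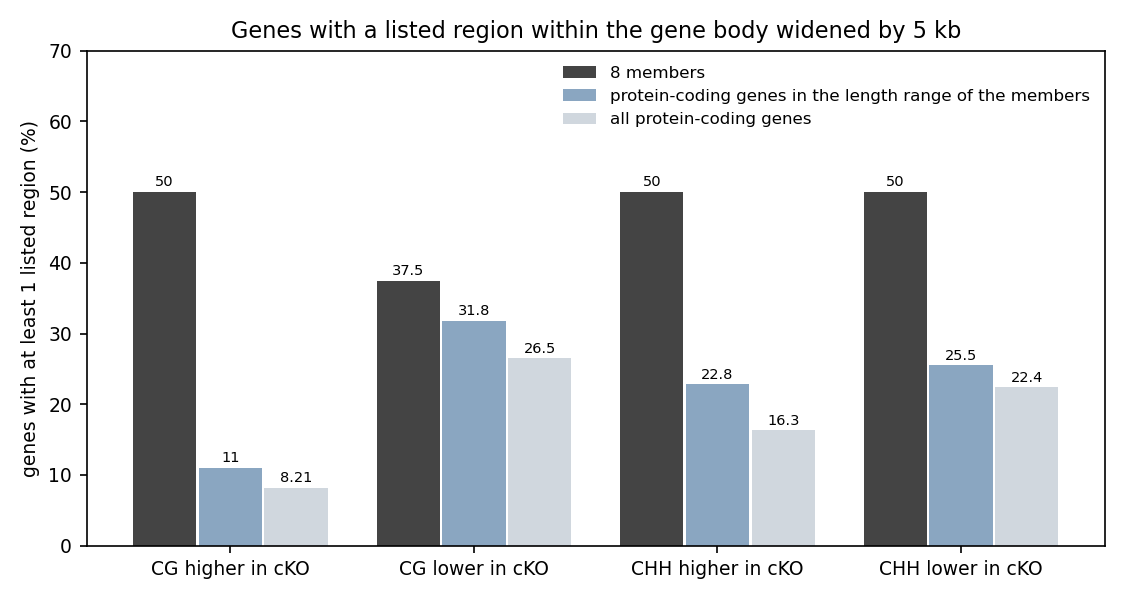
Percent of genes with at least 1 listed region in the gene body widened by 5 kb (vertical axis), by context and direction (horizontal axis), for the 8 channel genes, for protein-coding genes within their range of length and for all protein-coding genes. The bar of the 8 genes stands for 4 of 8 at CG regions higher in cKO, beside 11.0% and 8.21%. For CG regions lower in cKO it stands at 37.5%, beside 31.8% and 26.5%. The 8 genes were chosen with earlier results of these data known.

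**Figure D2:**
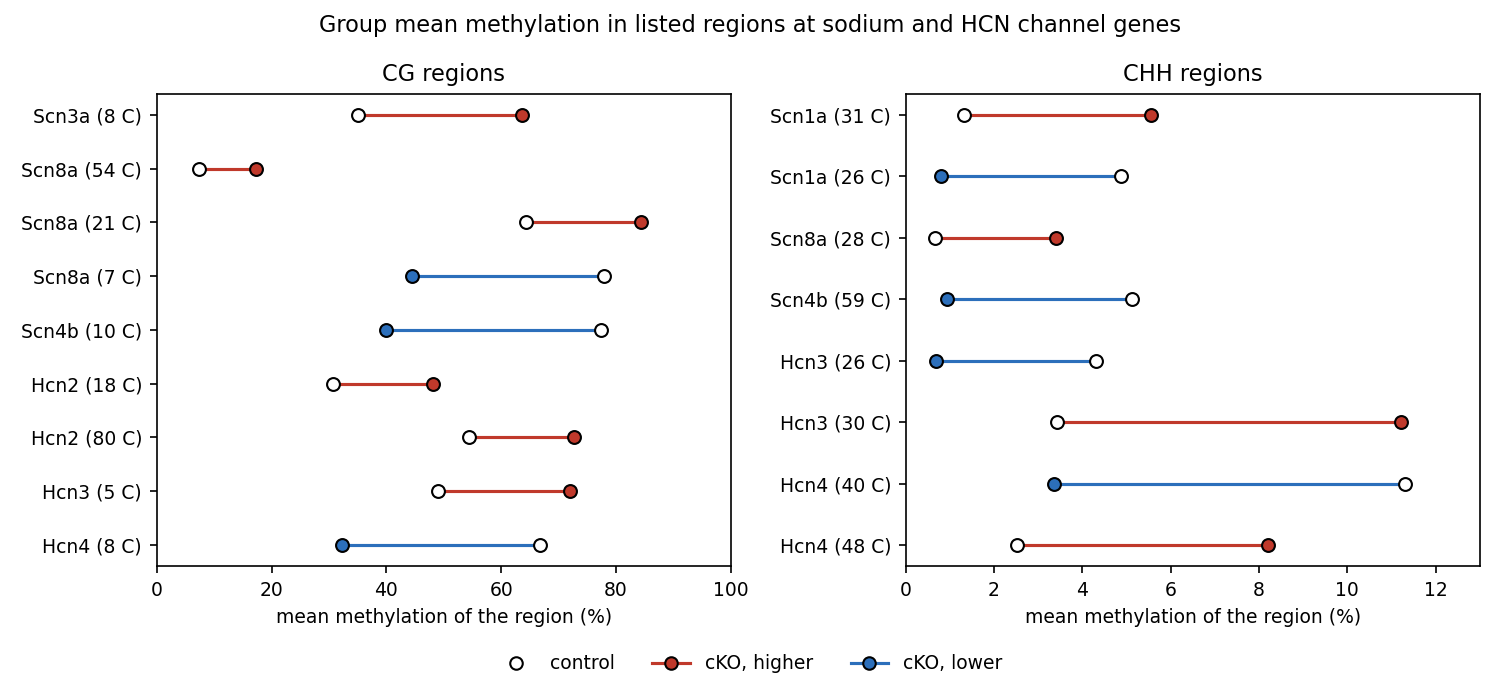
Mean methylation level in percent (horizontal axes, on different scales in CG and CHH) of each of the 17 regions, named by gene with the number of cytosines (C) in the region. Open circles are control and filled circles cKO, red where cKO was higher and blue where it was lower; each circle is 1 group mean without an error. The 3 CG regions lower in cKO began at 66.7% to 77.9% in control, and the 6 higher ones began at 7.31% to 64.4%.

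Among the alpha genes, Scn8a carried the most regions. It encodes an alpha subunit concentrated at the axon initial segment and at nodes of Ranvier, and lies on chromosome 15 from 100869863 to 101045938. All 3 regions inside the gene were higher in cKO. A CpG-dense stretch 64.7% of the way along the gene (100983776 to 100983962, 54 cytosines) had a CG level of 7.31% in control and 17.3% in cKO, 2.37 times as high. Nearer the 3′ end (101024448 to 101024597, 21 cytosines), a second CG region was at 64.4% in control and 84.3% in cKO. The only CHH region of Scn8a (100950624 to 100950724, 28 cytosines) was at 0.666% in control and 3.40% in cKO, 14.4 kb after the later of its 2 listed starts. Past the gene's end the direction was the opposite, as a CG region 2.05 kb downstream (101047991 to 101048094, 7 cytosines) had 77.9% in control and 44.5% in cKO.

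The CG gain from a low level in Scn8a was among the stronger ones by the authors' statistic. In the authors' deposited table it ranked 101 of the 2626 CG regions higher in cKO by area statistic, a score that adds up over a region's cytosines and served here only for ranking. It held 28.9 CG cytosines per 100 bp, counted on both strands, where the median of CG gains at protein-coding genes was 11.0. Its difference in level was smaller than that of most, at rank 2586. A high rank by the summed score therefore went with many cytosines and a small change in level.

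Scn1a encodes an alpha subunit best known from inhibitory interneurons (chromosome 2, 66270781 to 66440837, minus strand). No CG region was listed for it, and its 2 CHH regions went opposite ways. In the middle of the gene (66356591 to 66356662, 31 cytosines) the CHH level was 1.33% in control and 5.56% in cKO. At 3.81 kb after the start (66436960 to 66437028, 26 cytosines) it was 4.87% in control and 0.805% in cKO. The 2 regions lay 80.3 kb apart, and their differences, 4.23 and -4.06 points, were alike in size.

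Scn3a, an alpha gene used mainly in the embryonic brain (chromosome 2, 65457118 to 65567591), held 1 region. Its CG level over 8 cytosines (65471827 to 65471899) was 35.0% in control and 63.6% in cKO, the largest gain among the 8 genes at 28.6 points. The region lay 14.7 kb inside the gene's lower end, and no other was listed in the 120 kb window of Scn3a.

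Scn2a encodes an alpha subunit of excitatory neurons (chromosome 2, 65620764 to 65767447) and held 0 regions over a window of 157 kb. The nearest listed regions lay 149 kb below and 42.8 kb above the gene. Long genes without any region were uncommon in the table, as 6.49% of the 1510 protein-coding genes at least as long as Scn2a had none, against 52.5% of all protein-coding genes. Whether its levels were alike in both groups cannot be read from a list of called regions.

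Scn4b, the beta subunit gene (chromosome 9, 45138624 to 45154155, plus strand), held losses in both contexts close together. The CG level at 2.34 kb after the start (45140965 to 45141105, 10 cytosines) was 77.4% in control and 39.9% in cKO, a difference of -37.5 points and the largest among the 9 CG regions. The CHH level 784 bp further on (45141889 to 45142044, 59 cytosines) was 5.13% in control and 0.944% in cKO. Of the 8 genes, Scn4b and Hcn4 were those with a CG and a CHH loss inside the gene body and no gain there.

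**Figure D3:**
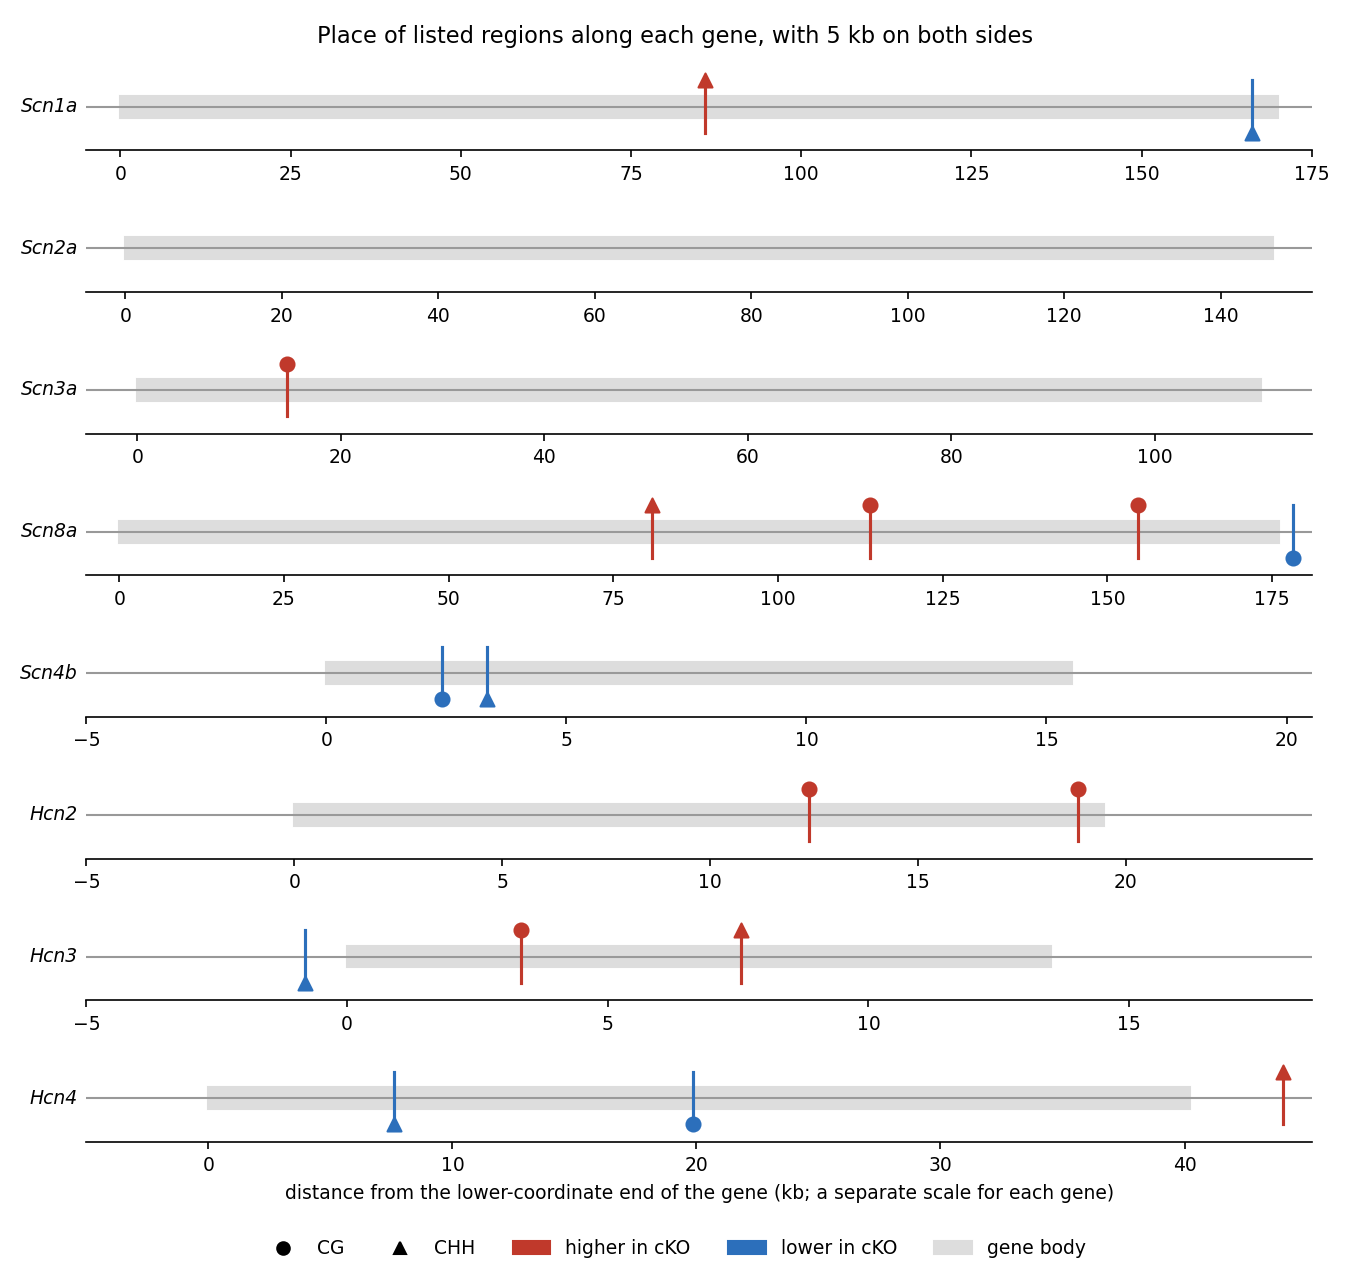
Place of each region along its gene, as distance in kb from the end with the lower coordinate (horizontal axes, 1 scale per gene), with grey bars for the gene bodies and 5 kb on both sides. Circles mark CG and triangles CHH regions, red and above the line where cKO was higher, blue and below it where it was lower. In Scn8a the 3 regions inside the gene are red and the 1 past its end is blue, and in Scn4b both regions lie near the start, centred 2.41 and 3.34 kb into the gene, and are blue.

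Of the HCN genes, Hcn2 gained CG methylation at both of its regions and had none in CHH. Hcn2 encodes a widely expressed pacemaker channel of the brain (chromosome 10, 79716634 to 79736108, plus strand). At 63.6% of its length (79728959 to 79729086, 18 cytosines) the CG level was 30.7% in control and 48.2% in cKO. At 96.8% of its length, 0.489 kb before the gene's end (79735354 to 79735619, 80 cytosines, equal to 40 CpG pairs), it was 54.4% in control and 72.7% in cKO. In the authors' deposited table the second region ranked 44 of 2626 CG gains by area statistic. It was the longest of the 17 regions at 266 bp and held 30.1 CG cytosines per 100 bp, rank 81 among the CG gains. At least 2 CG gains were present at 2.35% of protein-coding genes, and Hcn2 and Scn8a were the 2 of the 8 genes that had them.

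Hcn3 encodes a further pore subunit of the HCN family (chromosome 3, 89146775 to 89160284). Inside the gene both contexts were higher in cKO. The CG level over 5 cytosines (89150090 to 89150143) was 49.0% in control and 71.9% in cKO, and the CHH level 4.15 kb further on (89154296 to 89154380, 30 cytosines) was 3.43% and 11.2%. The latter was the highest CHH level in cKO among the 17 regions. Its difference of 7.79 points ranked 810 of the 8596 CHH gains. Outside the gene, 0.776 kb from its lower end, a CHH region (89145939 to 89145999, 26 cytosines) had 4.32% in control and 0.685% in cKO. That region lies within Pklr, a pyruvate kinase gene next to Hcn3, and was the only one of the 17 that overlapped another RefSeq gene.

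Hcn4, the pacemaker channel best known from the sinoatrial node (chromosome 9, 58822949 to 58863175, plus strand), showed the reverse arrangement. Inside the gene both regions were lower in cKO. The CHH level 7.55 kb after the start (58830497 to 58830593, 40 cytosines) was 11.3% in control and 3.36% in cKO, a loss of 7.95 points that ranked 1320 of 45012 CHH losses. The CG level about midway (58842757 to 58842822, 8 cytosines) was 66.7% in control and 32.3% in cKO. Past the gene's end, by 3.76 kb, a CHH region (58866936 to 58867031, 48 cytosines) was at 2.53% in control and 8.20% in cKO. This was the region farthest from a gene body that the window of 5 kb took in, and the nearest one left out, a CHH loss from 10.2% to 1.93%, lay 5.13 kb below Hcn4, within Rec114.

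CG gains and CG losses at these genes differed in where they started. Part of this follows from the split by direction, since a gain needs room above its control level and a loss room below it. The 6 gains had control levels from 7.31% to 64.4% (median 42.0%) and cKO levels from 17.3% to 84.3% (median 67.8%). The 3 losses had control levels from 66.7% to 77.9% and cKO levels from 32.3% to 44.5%. At all protein-coding genes, CG gains started at a median of 50.9% and CG losses at 75.2%, so the levels of the 8 genes followed the pattern of the table. The gains held 14.0 CG cytosines per 100 bp at the median and the losses 7.09, beside 11.0 and 7.55 at all protein-coding genes. Of the 9 CG regions, 4 had fewer than 10 cytosines (2 gains and 2 losses), and a level over so few sites is the least precise here.

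**Figure D4:**
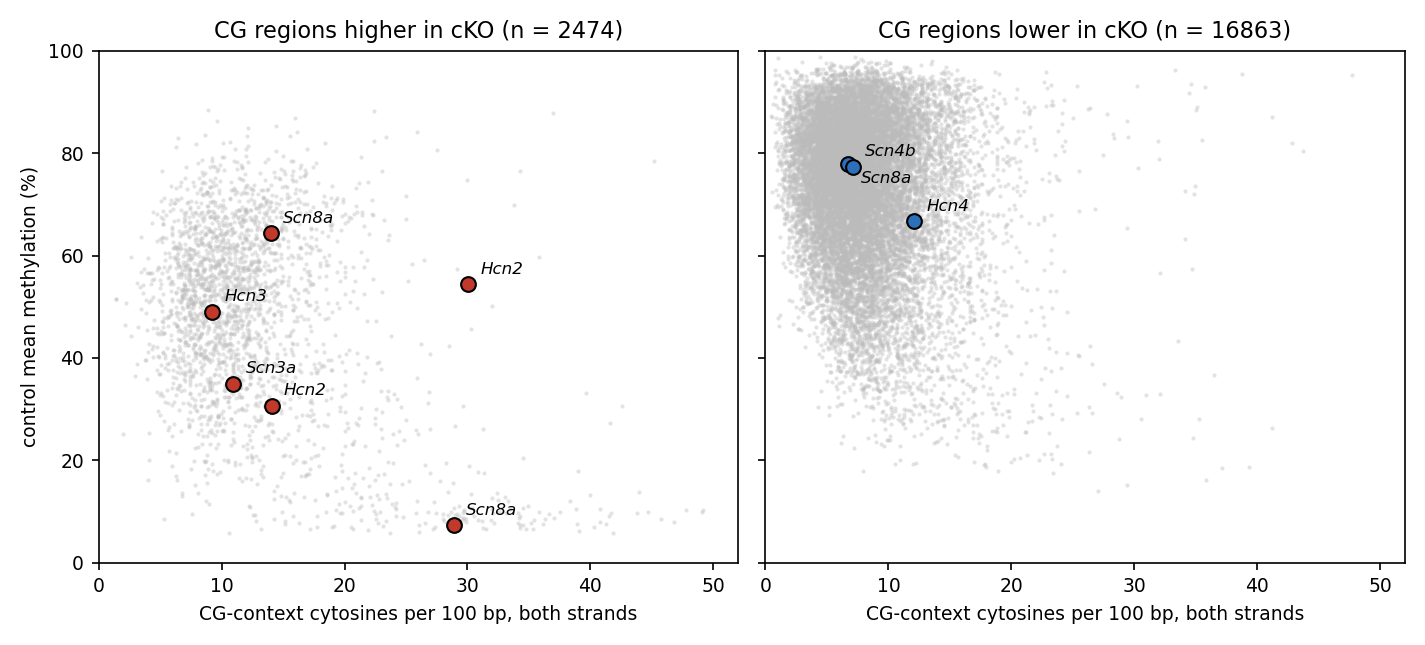
Control methylation in percent (vertical axis) against CG-context cytosines per 100 bp on both strands (horizontal axis) for CG regions at protein-coding genes, 2474 higher in cKO on the left and 16863 lower on the right, 1 grey point each. Coloured points are the regions of the channel genes. The denser region of Hcn2 (30.1 per 100 bp, 54.4%) and that of Scn8a (28.9 per 100 bp, 7.31%) hold the most cytosines per 100 bp among the 9, and the 3 losses lie between 6.73 and 12.1 per 100 bp.

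In the CHH context the 4 gains went from 0.666% to 3.43% in control (median 1.93%) to between 3.40% and 11.2% in cKO. The 4 losses went from between 4.32% and 11.3% in control to between 0.685% and 3.36%. Medians at all protein-coding genes were 1.70% and 6.92% for gains and 5.64% and 1.07% for losses, in control and cKO. Apart from the CHH loss in Hcn4 and the CHH gain in Hcn3, the absolute differences lay between 2.73 and 5.67 points, and the smallest difference listed for CHH in the whole table was 2.00 points.

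Gains were listed inside the genes more than around them, a difference that was not tested. The 8 genes were chosen with earlier results of these data known. Inside the 8 gene bodies 9 of 14 regions were higher in cKO (6 of 8 in CG and 3 of 6 in CHH), where 14.8% of CG and 41.2% of CHH regions inside protein-coding gene bodies were. In the 5 kb outside them 1 of 3 was. Between 5 and 20 kb outside, 1 of 24 regions was higher and 23 were lower. These 24 lay beside 5 of the 8 genes (10 near Scn8a, 6 each near Hcn3 and Hcn4, and 1 each near Scn3a and Hcn2), and 17 of them overlapped another gene. Over the whole table, 1.45% of the 12378 regions that lie 5 to 20 kb from a protein-coding gene and no nearer to any were higher. These sets are not alike, since 17 of the 24 overlapped another gene whereas the 12378 lay away from every protein-coding gene. The shares of gains in them cannot be compared directly. At protein-coding genes widened alike, the share of CG regions higher in cKO was 14.8% with no flank and 9.93% with 20 kb. In CHH it was 41.2% and 28.6%, so a lower share with a wider flank was not particular to the 8 genes.

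**Figure D5:**
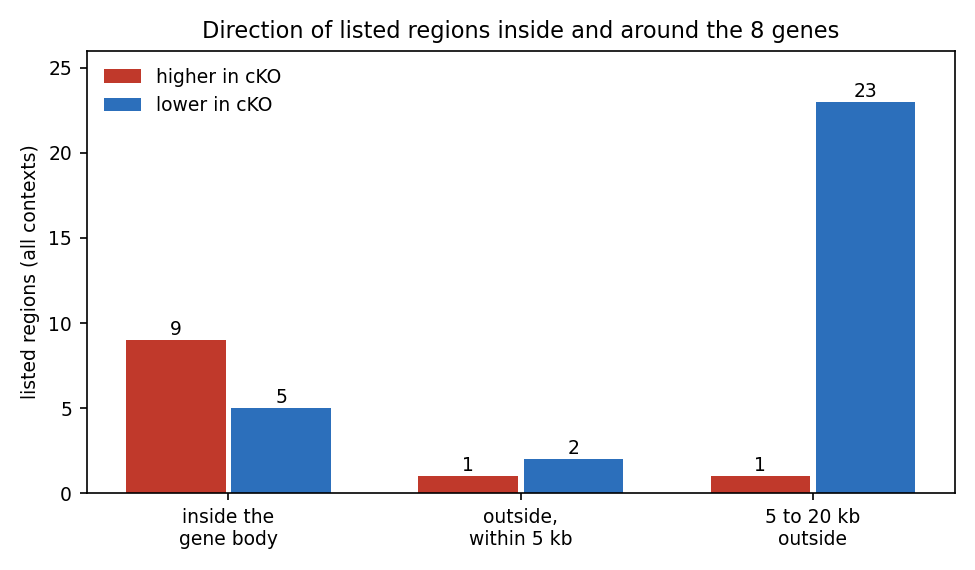
Number of listed regions of all contexts (vertical axis) that were higher (red) or lower (blue) in cKO inside the 8 gene bodies, within 5 kb outside them, and 5 to 20 kb outside them (horizontal axis). Inside the genes 9 were higher and 5 lower, and at 5 to 20 kb 1 was higher and 23 lower.

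Other sodium channel genes held more regions lower than higher in cKO, which is also the pattern at protein-coding genes at large, where 12.8% of CG and 36.1% of CHH regions were higher. Of 5 further alpha genes examined (Scn4a, Scn7a, Scn9a, Scn10a and Scn11a), 4 had a region. The share was 47.5% of all protein-coding genes and 59.2% of those within the length range of the 8 genes. Together the further alpha genes held 6 CG and 20 CHH regions lower in cKO, 1 CHH region higher and 0 CG regions higher. Apart from 1 CHH loss at Scn4a, the skeletal muscle gene, the losses were at Scn10a and Scn11a, which are known from sensory neurons and lie on chromosome 9. The median CG level of their 6 regions was 73.3% in control and 40.0% in cKO. By absolute area statistic, which adds up over cytosines, the top region of each was a CHH loss. It went from 6.95% to 0.637% over 101 cytosines at Scn11a and from 8.29% to 1.24% over 91 at Scn10a. These changes in level were smaller than that between the CG medians. The single gain was a CHH region at Scn9a, and Scn7a had none. Of 2 further beta genes, Scn3b had a CG loss and a CHH loss (5.31% to 1.20% in CHH), and Scn2b had no region.

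Genes of channel partners held more regions higher than lower in cKO, most of them in a few genes. Of 10 such genes, which anchor sodium channels at the axon initial segment, bind their tails, assist HCN channels or, in the case of Nalcn, form a separate sodium leak channel, 9 had a region (47.5% of all protein-coding genes did), with 18 CG regions higher and 3 lower, and 32 CHH regions higher and 3 lower, besides 1 CHG region higher and 2 lower. At all protein-coding genes 12.8% of CG and 36.1% of CHH regions were higher. Ank3 held 8 of the CG gains and Sptbn4 held 7, while Nalcn held 10 of the CHH gains, Fgf12 8 and Pex5l 7. A CHH region higher in cKO was present at 7 of the 10, against 16.3% of protein-coding genes, and more CHH regions higher than lower at the same number, against 14.1%. Sptbn4, a spectrin of the axon initial segment, had the region of largest absolute area statistic among the 10 genes. This was a CG gain over 83 cytosines from 9.56% in control to 25.3% in cKO. Pex5l, an auxiliary protein of HCN channels, had a CHH gain from 0.739% to 5.78%. Nfasc, Ank3, Nalcn, Fgf12, Fgf13, Fgf14 and Pex5l are each longer than Scn2a, and long genes have more room for a region. Of the 1510 protein-coding genes at least as long as Scn2a, only 6.49% had no region. Having a region was thus common at this length, and the shares of all protein-coding genes given above do not account for length.

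Among the 4619 protein-coding genes with at least 3 regions, the same numbers of gains and losses in each context were found at 6 other genes for Scn8a, at 9 for Hcn3 and at 29 for Hcn4. None of these belonged to the family and partner lists. Nearness was measured on the shares of CG and CHH gains and losses together with the number of regions (log2). By this measure the listed gene nearest to Scn8a was Nfasc, a cell adhesion gene of the axon initial segment. It had 2 CG regions higher, 2 lower and 1 CHH region higher. For Hcn3 and Hcn4 the nearest listed gene by the same measure, Fgf13, had 3 CHH losses and 1 CHG gain and so was not close to either.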

How the data were processed

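DNA of 4 libraries was sequenced after bisulfite treatment. Bowtie2, CASAVA and mm10 are named in the submitters' processing notes. For the region caller, its thresholds and its use of replicates, the answer is not given in the sources used here. Levels were deposited by the authors as a fraction from 0 to 1 per group and printed as a percent. The deposited area statistic is a score, and differences were taken as cKO minus control from the levels, equal to the deposited ones within 1e-07 points in all 101350 regions. Against RefSeq start sequence, all 253 regions inside it began and ended at a C or G with positions counted from 1, and the number of cytosines equalled that on both strands in 202 of 211 CG and 42 of 42 CHH regions (exact equality).

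Gene bodies came from RefSeq (GRCm38.p6), without entries placed below 3 Mb on any chromosome but Y. Overlaps were found with Python 3.11.15 and pandas 2.3.3, tested on simulated data. No test was possible with 1 mean per group. Alternatives were the flank (0 and 20 kb), an overlap of 50%, at least 10 cytosines, a larger difference and a larger area statistic. The members and lists were chosen with earlier results of these data known. All 8 members and their CG regions are named. Since no member had over 3 CHH regions, these are all named too. From each list the 2 genes with the largest absolute area statistic are given, and others named with them are given as counts. Results for some genes of the lists are not reported here, and exons were not analysed here.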

Additional observations from a re-analysis of the deposited data

How the results depend on the processing

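No paired analysis was possible because the table holds 1 mean per group, and for the same reason no library could be left out. All counts are small, so 1 region moves a count by much. With no flank, 2 genes had more CHH regions higher than lower, in place of 1. With a flank of 20 kb, CG regions lower in cKO numbered 13 (3 before) at 6 genes (3 before), CHH regions lower in cKO 16 (4 before), CHG regions 1 (0 before), and 0 genes had more CHH regions higher than lower. With at least 10 cytosines, 1 CG loss at 1 gene was left, and 2 genes had a CG gain (4 before). With differences of at least 30 points in CG and 5 points elsewhere, 0 CG gains at 0 genes were left (6 at 4 genes before), and 2 CHH gains and 1 CHH loss. With an area statistic at or above the median of its context, 1 CG loss at 1 gene, CG gains at 2 genes, 1 CHH gain and 1 CHH loss were left. An overlap of 50% of the region changed no count. Depth is unknown, so no result could be limited to well covered regions.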

Other observations

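The stretch of chromosome 2 that holds 5 sodium channel genes, from Scn3a to Scn7a (65457118 to 66784910, 1.33 Mb), held 24 regions, or 1.81 per 100 kb, beside 4.20 per 100 kb over the autosomes. Only 4 of the 24 overlapped a sodium channel gene, 2 in Scn1a and 1 each in Scn3a and Scn9a. The genes between them held gains, which were chosen for mention after their values were seen. Csrnp3 had 5 CG regions and 1 CHH region, all higher in cKO, among them a CG region from 44.7% in control to 70.4% in cKO and a CHH region from 1.72% to 7.33%. Galnt3, a glycosyltransferase gene, had CHH gains from 1.58% to 8.76% and from 3.47% to 11.7%, and Ttc21b, a gene of cilium transport, had CHH gains from 0.826% to 3.97% and from 1.47% to 6.48%. All 9 CG losses of the stretch lay outside RefSeq genes, and 1 CG gain did too (28.8% in control, 65.9% in cKO), which ended 823 bp before a loss from 88.0% to 54.4%.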
